A study of Caenorhabditis elegans with 2 samples.

Results

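The promoters of 73 genes of the translation machinery were examined for binding of K11D2.4, a protein with a C2H2-type zinc finger domain, in whole young adult Caenorhabditis elegans. They were taken by gene symbol from 19973 protein-coding genes of the nuclear chromosomes: 33 initiation factor genes (eif-, iff-, ife- and ifg- names), 8 elongation and termination factor genes (eef- and erfa- names) and 32 aminoacyl tRNA synthetase genes. The series has 1 group of 2 biological replicates, both from strain RW12320, in which the K11D2.4 locus on chromosome I carries TY1, EGFP and 3xFLAG tags inserted by CRISPR (allele st12320). The worms had been synchronised by bleaching and starvation as L1 larvae and were 62 hours old, and their sonicated chromatin (fragments of 200 to 800 bp) was precipitated with an antibody against GFP. Libraries from untagged animals or from input chromatin were not analysed here, so no value has a background of that kind beside it. Because whole animals were used, binding in few cells and weak binding in many cells cannot be told apart.

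Translation begins when initiation factors bring the small ribosomal subunit and the initiator tRNA to the start codon of an mRNA. eIF2 carries the initiator tRNA and is recharged with GTP by eIF2B. eIF4E and eIF4G bind the capped end of the mRNA, and eIF3 is a scaffold of many subunits on the small subunit. Elongation then depends on eEF1A, which delivers charged tRNAs, on the eEF1B and eEF1G subunits that serve eEF1A, and on eEF2, which moves the ribosome along; release factors end the chain. Aminoacyl tRNA synthetases load each tRNA with its amino acid, with separate enzymes for many amino acids in the cytosol and in mitochondria.

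Each gene was given the highest peak signal among the peak summits that fell in its promoter, a window reaching 1000 bp upstream and 200 bp downstream of each of its transcript starts. Such a summit is called a promoter summit. The signal is a peak height on a scale of the authors', which is not stated, so signals were compared within a list and not between the pooled list and the replicates. The main list was the pooled list of 1927 peaks that is named conservative and was thresholded by IDR (irreproducible discovery rate), which scores how well the rank of a peak repeats. Each replicate also had a list of its own past that threshold, of 959 peaks in replicate 1 and 1141 in replicate 2, and a ranked list with no threshold, of 41734 and 42705 peaks in replicates 1 and 2. Read depth is unknown.

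The elongation factor genes carried main peaks in most of their promoters, and the synthetase genes in few of theirs. A main promoter summit was present at 15 of the 73 genes (20.5%), against 5.78% of all protein-coding genes. By class it was present at 6 of 33 initiation factor genes (18.2%), 6 of 8 elongation and termination factor genes (75.0%) and 3 of 32 synthetase genes (9.38%). The synthetase share rests on 3 genes. The median promoter window was similar, at 1201 bp for initiation, 1207 bp for elongation and termination, 1210 bp for synthetase and 1201 bp for all genes. Genes with several starts could have wider windows, such as 4604 bp at qars-1 and 2402 bp at erfa-3 and mars-1. Whether window width affected the shares was not tested.

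Elongation and termination factor genes also had the highest share in each replicate's own thresholded list. Replicate 1 had a promoter summit at 2 initiation, 5 elongation and termination and 1 synthetase gene, against 3.39% of all genes. Replicate 2 had one at 3, 5 and 1 genes of these classes, against 4.08% of all genes. The initiation share was then 6.06% in replicate 1 and 9.09% in replicate 2. The synthetase share was 3.12% in both replicates. It rests on 1 gene, too few to be read as a difference from all genes.

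**Figure D1:**
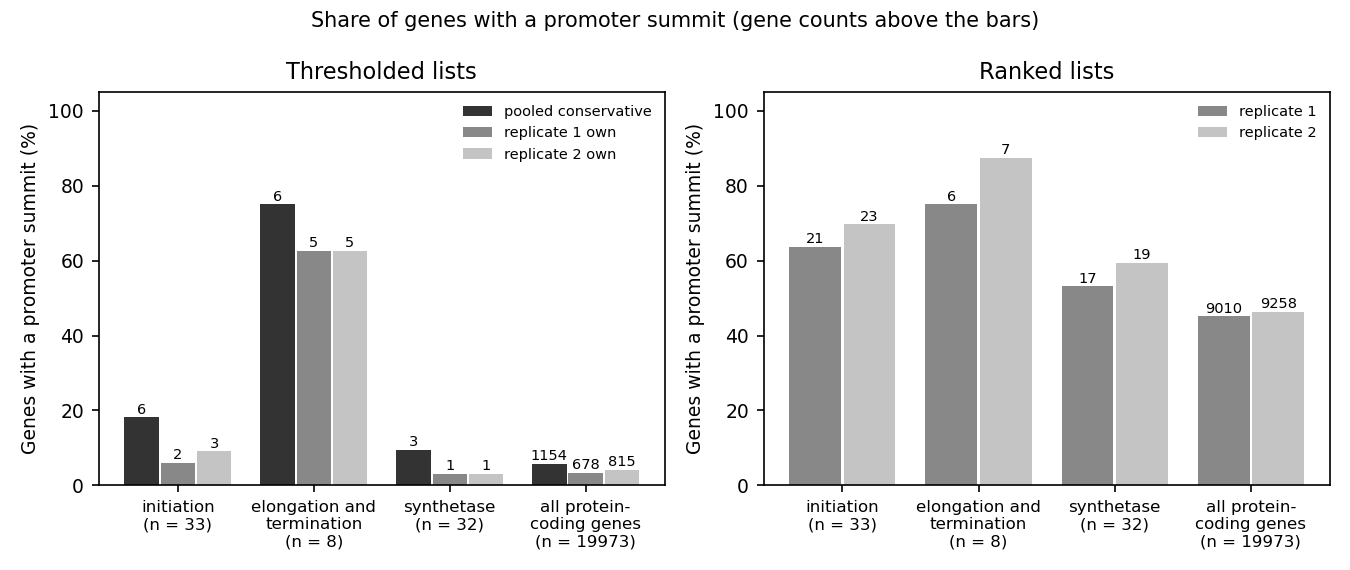
Percentage of genes with a promoter summit, by class, in the 3 thresholded lists (left) and the 2 ranked lists (right), with the number of genes above each bar. Elongation and termination factor genes reach 75.0% in the pooled conservative list, and synthetase genes 9.38%, against 5.78% of all protein-coding genes.

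Without a threshold, promoter summits were listed at many more genes. The ranked list of replicate 1 held one at 44 of the 73 genes (60.3%), against 45.1% of all genes, and that of replicate 2 at 49 (67.1%), against 46.4%. The initiation share was 63.6% in replicate 1 and 69.7% in replicate 2. In the same order it was 75.0% and 87.5% for elongation and termination and 53.1% and 59.4% for synthetase genes. Neither ranked list held a promoter summit at 19 of the 73 genes, against 7798 of all 19973 genes. By class these were 9 of 33 initiation, 1 of 8 elongation and termination and 9 of 32 synthetase genes. The median highest signal, with genes that had no summit counted as 0, was 93.2 in replicate 1 and 85.0 in replicate 2 for elongation and termination factor genes. It was 17.97 and 18.4 for initiation and 15.9 and 15.8 for synthetase genes in replicates 1 and 2, and 0 for all protein-coding genes in both. Among genes that had a summit, the elongation and termination median was 102.02 and 93.8, the initiation median 33.6 and 24.9 and the synthetase median 22.98 and 19.7, against 22.5 and 21.2 for all genes in replicates 1 and 2.

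**Figure D2:**
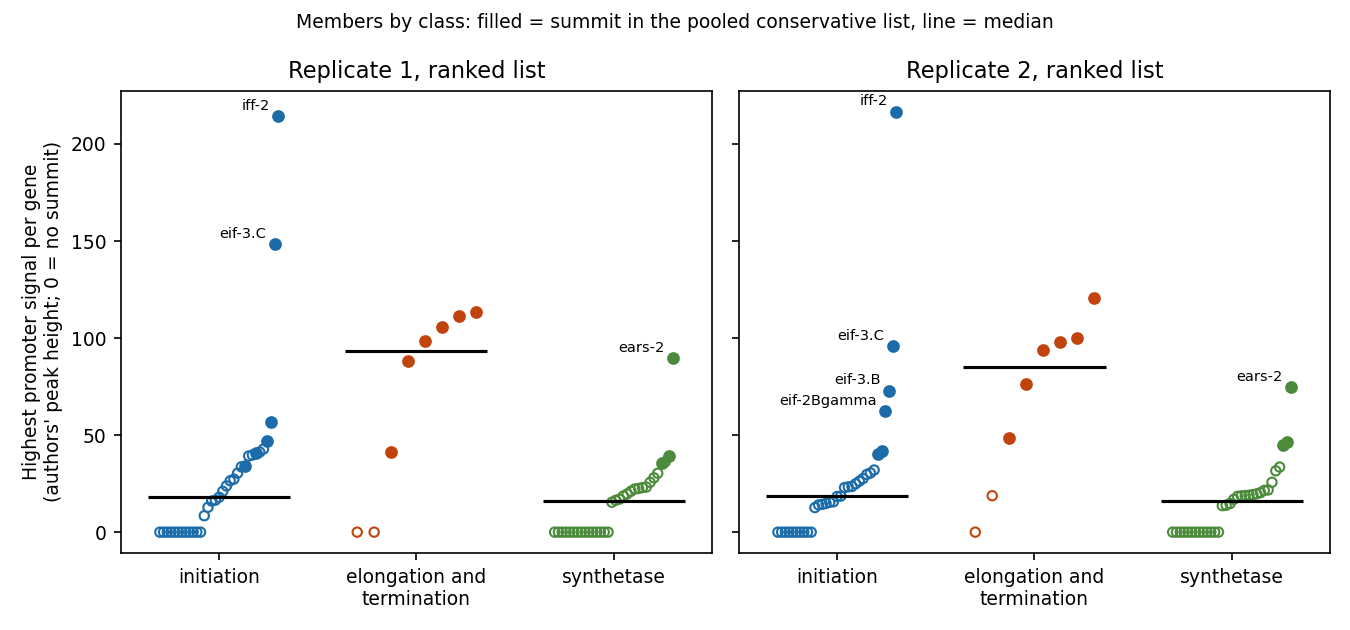
Highest promoter signal of each member in the ranked list of replicate 1 (left) and replicate 2 (right), where 0 marks a gene with no summit. Filled points have a summit in the pooled conservative list, open points do not, and the black line is the class median (93.2 and 85.0 for elongation and termination, under 20 for the other classes).

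Among the initiation factor genes, iff-2, a gene for eIF5A, had the highest signal in both replicates. The next was eif-3.C, at 148 in replicate 1 and 95.7 in replicate 2. eIF5A is named as an initiation factor and is known to help ribosomes elongate and terminate. The iff-2 summit had a signal of 214 in replicate 1 and 217 in replicate 2, higher than any other member in both, and 431 in the main list (chrII:8561331-8561533, rank 61 of 1927). The summit lay at -65 bp from the iff-2 start in the main list, with -66 and -80 bp in replicates 1 and 2. Its paralogue iff-1 had no main summit and signals of 26.4 and 23.5 in replicates 1 and 2.

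The sequence upstream of iff-2 and of eef-1G, the gene with the highest main signal of the elongation class, is shown because both summits fall within 100 bp of the transcript start. The 250 bases before the start are given on the gene's own strand (build ce11, sequence from the RefSeq WBcel235 genome), with the bases within 50 bp of the main summit in capitals; for eef-1G the capitals stop at the start. They cover chrII:8561368-8561617 (minus strand) and chrV:10965469-10965718 (plus strand).
iff-2: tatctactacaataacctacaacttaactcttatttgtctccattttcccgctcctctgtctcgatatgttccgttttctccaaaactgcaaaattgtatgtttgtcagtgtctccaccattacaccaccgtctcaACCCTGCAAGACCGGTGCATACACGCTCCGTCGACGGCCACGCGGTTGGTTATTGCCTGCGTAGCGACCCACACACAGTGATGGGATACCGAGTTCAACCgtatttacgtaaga
eef-1G: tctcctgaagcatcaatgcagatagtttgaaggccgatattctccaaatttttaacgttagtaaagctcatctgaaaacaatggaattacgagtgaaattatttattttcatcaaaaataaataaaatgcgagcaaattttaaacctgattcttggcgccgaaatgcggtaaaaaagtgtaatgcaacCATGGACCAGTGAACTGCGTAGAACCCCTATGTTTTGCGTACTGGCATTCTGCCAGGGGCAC

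eIF3, the initiation complex with the most genes here, had main peaks at 4 of the 11 taken by symbol (36.4%), against 5.78% of all genes. In the second pooled list it was 2 of 11 (18.2%), against 5.97% of all genes. In each replicate's own thresholded list it was 1 of 11 (9.09%), against 3.39% in replicate 1 and 4.08% in replicate 2. eif-3.C, a core subunit, had signals of 148 in replicate 1 and 95.7 in replicate 2 (main signal 237, chrI:9979834-9979989, summit at -239 bp), and it was the only eIF3 gene in both replicates' own thresholded lists. eif-3.B, another core subunit, had 56.7 and 72.9 (main signal 112, chrII:14794957-14795280, -285 bp). eif-3.G had 40.6 and 40.5 (86.8, chrII:8442234-8442557, -371 bp). eif-3.D had 33.9 and 41.6 (76.3, chrIII:8971645-8971968, -229 bp). The eif-3.G and eif-3.D summits were absent from the second pooled list and from both replicates' own lists, and the eif-3.D summit lay nearer to the start of R08D7.4, at -85 bp. The other eIF3 genes, eif-3.E, eif-3.F, eif-3.H, eif-3.I, eif-3.J, eif-3.K and eif-3.L, had no main summit, and eif-3.F had no ranked summit in either replicate.

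The counts of main peaks at genes of eIF2, eIF2B and the cap-binding factors were too small to be read against the 5.78% of all genes. None of the 3 eIF2 genes had a main summit. All 3 had ranked summits, against 45.1% of all genes in replicate 1 and 46.4% in replicate 2. Their signals were 23.8 to 42.8 in replicate 1 and 14.3 to 18.4 in replicate 2. The promoter windows of eif-2alpha (2402 bp) and eif-2beta (2161 bp) were wider than the 1201 bp median of all genes. Of 5 eIF2B genes, eif-2Bgamma had a main summit, with 46.8 in replicate 1 and 62.3 in replicate 2 (main signal 107, chrII:6968319-6968642). That summit lay at -833 bp, in an intron of C15F1.5 and inside sup-39, a gene for a small nuclear RNA at chrII:6968394-6968558. It was also within 200 bp of mir-1831, likewise annotated as a small nuclear RNA gene. It was the only main summit of the 73 genes within 200 bp of a tRNA, snRNA or snoRNA gene. Of the 6 eIF4E and eIF4G genes none had a main summit. No ranked summit was listed in either replicate at 4 of them (ife-1, ife-2, ife-5 and ifg-1), against 7798 of all 19973 genes. The 27 initiation factor genes without a main summit ranged in replicate 1 from 8.45 to 42.8 over the 15 that were listed, and in replicate 2 from 12.6 to 32.02 over 17. By the lower of their 2 replicate values, the highest of these were eif-2Bdelta (39.7 in replicate 1 and 30.5 in replicate 2), eif-3.J (30.4 and 32.02), ife-4 (39.2 and 29.7) and eif-3.E (33.6 and 27.6). eif-1.A, eif-2A, eif-2Balpha and eif-2Bepsilon had no ranked summit in either replicate.

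All genes named for elongation factors had a main summit except eef-1B.2. eef-1A.2 had signals of 98.3 in replicate 1 and 100.1 in replicate 2 (main signal 200.5, chrX:7823215-7823346, -382 bp). eef-1A.1, the other eEF1A gene, had 111 and 76.1 (170, chrIII:6971926-6972249, -376 bp), so the paralogues did not keep the same order in both replicates. eef-1B.1, for a subunit that recharges eEF1A, had 88.1 and 93.8 (171, chrIII:7973351-7973442, -22 bp), whereas its paralogue eef-1B.2 had no ranked summit in either replicate. eef-1G had 113 and 97.96 (220, chrV:10965545-10965868, -12 bp). eef-2 had 106 and 121 (217, chrI:9163445-9163562, -39 bp). These 5 genes lay within a narrow range, 88.1 to 113 in replicate 1 and 76.1 to 121 in replicate 2, and all 5 were in both replicates' own thresholded lists.

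The release factor genes were lower. erfa-3, for the GTPase that works with the release factor, had 41.4 in replicate 1 and 48.3 in replicate 2 (main signal 89.6, chrV:11113218-11113541, -289 bp) and was in neither replicate's own thresholded list. erfa-1, for the factor that recognises stop codons, had no main summit; it had no ranked summit in replicate 1 and a signal of 18.8 in replicate 2.

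Main peaks at 5 of the 6 elongation and termination factor genes lay between the gene and a neighbour, so that each summit was also within range of the neighbour's start. These neighbours, all on the opposite strand, were ctf-4 (-168 bp) at eef-1G, clsp-1 (-226 bp) at eef-2, aco-2 (-309 bp) at eef-1B.1, rfc-4 (-165 bp) at eef-1A.1 and math-33 (-527 bp) at erfa-3. The factor gene's own start was the nearer one at all of these except eef-1A.1, where rfc-4 was nearer. eef-1A.2 shared its summit with no other gene. Sharing was not limited to this class. It was seen at 9 of the 15 members with a main summit, among them 2 of 6 initiation and 2 of 3 synthetase genes. F54C9.14 (-870 bp) shared the summit of iff-2, and F58B3.6 (-813 bp) that of mars-1. The share over all genes with a main summit was not computed.

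Of the synthetase genes, ears-2, for a mitochondrial glutamyl tRNA synthetase, had the highest signal in both replicates, at 89.6 in replicate 1 and 74.9 in replicate 2 (main signal 159, chrIV:390336-390659). It was the only synthetase gene in both replicates' own thresholded lists. Its summit, at -30 bp, lay at -62 bp from the start of uncp-18 on the opposite strand, so its gene cannot be told from position. yars-2, a tyrosyl tRNA synthetase gene, had 35.5 and 46.6 (main signal 89.96, chrIV:4712461-4712784, summit at 1 bp downstream of a start, in the annotated UTR). mars-1, for the cytosolic methionyl tRNA synthetase, had 39.5 and 44.9 (main signal 82.96, chrIV:11635673-11635996, -348 bp). yars-2 and mars-1 were in neither replicate's own thresholded list.

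The RefSeq product names the compartment of 13 of the 32 synthetases, and a main summit was present at 1 of the 10 cytosolic (mars-1) and 1 of the 3 mitochondrial genes (ears-2) among them. These counts are too small to be read against the 5.78% of all genes, and the other 19 synthetases were not split. The 29 synthetase genes without a main summit had signals of 15.4 to 36.3 in replicate 1 (14 listed) and 13.6 to 33.5 in replicate 2 (16 listed). By the lower of their 2 replicate values, the highest of these were fars-3 (25.7 in replicate 1 and 31.6 in replicate 2), a subunit of the phenylalanyl enzyme, aars-2 (22.5 and 33.5), aars-1 (36.3 and 21.7) and gars-1 (21.1 and 21.5). In aars-2 the 2 replicates' summits were 193 bp apart, and in gars-1 they were 1013 bp apart. dars-2, fars-2, lars-2, nars-1, pars-2, sars-1, vars-1, wars-1 and yars-1 had no ranked summit in either replicate. They are 9 of 32 synthetase genes, against 7798 of all 19973 genes with none.

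**Figure D3:**
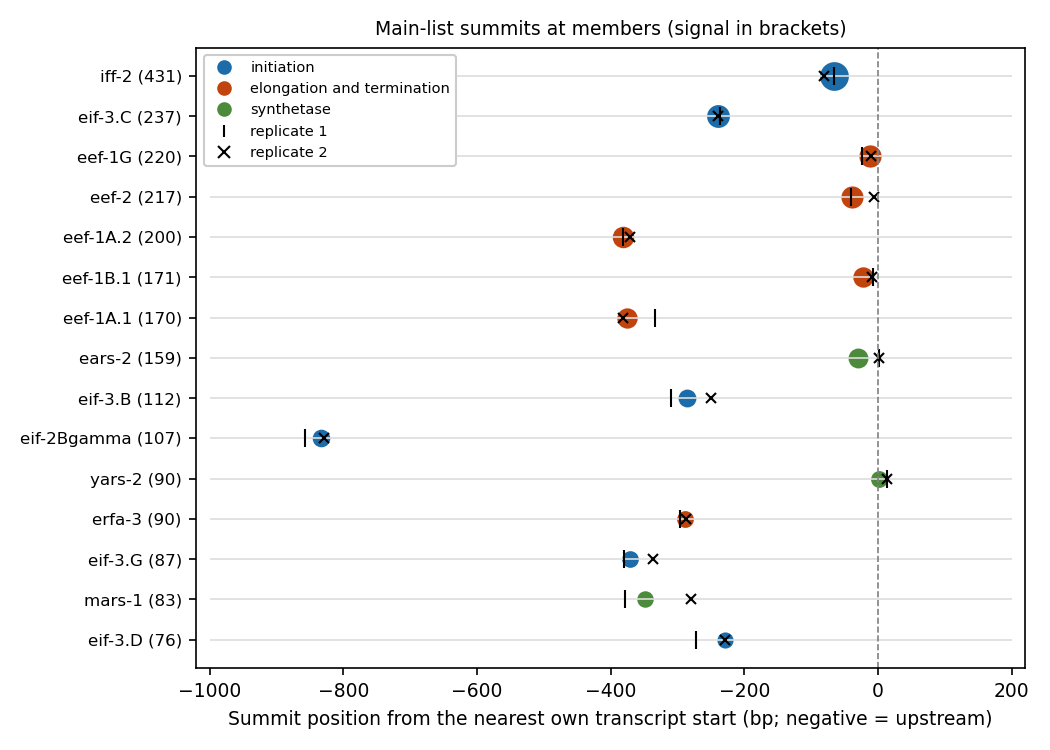
Position of the highest main promoter summit of the 15 members that have one, in bp from the nearest own transcript start, with point area rising with the main signal in brackets. Bars and crosses give the summits in the ranked lists of replicate 1 and replicate 2, which lie within 99 bp of each other in all 15.

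The median main summit of the members lay at -239 bp, against -269.5 bp for all genes with a main promoter summit, within a window that itself limits the distance. Distance was taken to the nearest start of a gene, and members had a median of 2 starts, against 1 for all protein-coding genes. Whether this affected the shares that follow was not tested. Of the 15 members with a main summit, 6 (40.0%) had it within 100 bp of a start. This compares with 18.3% of the 1154 genes with a main promoter summit. Within 500 bp of a start, 14 (93.3%) had it, against 75.1%. The 6 within 100 bp were iff-2, eef-1G, eef-2, eef-1B.1, ears-2 and yars-2. The eEF1A genes were apart from the other elongation factors in this respect, with main summits at -376 bp for eef-1A.1 and -382 bp for eef-1A.2.

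The bases around the main summits are shown so that the classes can be compared, for the highest members of each class except eif-3.C and eef-2. They are the 100 bases centred on the summit, or the ones upstream of the start where the window ran past it, on the gene's own strand in build ce11. On the plus strand they are eif-3.B chrII:14795069-14795168, eif-3.G chrII:8442346-8442445, eef-1G chrV:10965657-10965718 and eef-1A.2 chrX:7823222-7823321. On the minus strand they are iff-2 chrII:8561382-8561481, eif-2Bgamma chrII:6968431-6968530, eef-1B.1 chrIII:7973387-7973457, eef-1A.1 chrIII:6972038-6972137, ears-2 chrIV:390469-390547, yars-2 chrIV:4712625-4712672 and mars-1 chrIV:11635785-11635884. Capitals mark ACGCAG or CGCAGA on either strand (CTGCGT is ACGCAG read on the other strand). These hexamers were taken up because earlier results of these data had them enriched at summits, and they overlap in ACGCAGA. Without capitals a window holds neither.
iff-2: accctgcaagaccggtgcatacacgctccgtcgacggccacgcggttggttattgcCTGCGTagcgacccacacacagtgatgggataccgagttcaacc
eif-3.B: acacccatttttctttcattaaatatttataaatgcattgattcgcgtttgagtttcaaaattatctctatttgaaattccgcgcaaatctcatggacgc
eif-2Bgamma: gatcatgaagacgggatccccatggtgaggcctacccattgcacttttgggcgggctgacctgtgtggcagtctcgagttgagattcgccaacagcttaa
eif-3.G: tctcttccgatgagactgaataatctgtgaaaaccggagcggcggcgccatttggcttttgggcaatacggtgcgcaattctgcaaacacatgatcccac
eef-1G: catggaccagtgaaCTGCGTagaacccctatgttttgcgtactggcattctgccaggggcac
eef-1A.2: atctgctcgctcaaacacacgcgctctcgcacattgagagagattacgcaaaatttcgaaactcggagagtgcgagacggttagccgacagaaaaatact
eef-1B.1: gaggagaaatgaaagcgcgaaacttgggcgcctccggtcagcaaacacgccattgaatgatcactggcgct
eef-1A.1: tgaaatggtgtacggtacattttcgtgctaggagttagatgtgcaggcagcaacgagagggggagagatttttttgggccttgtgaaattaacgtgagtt
ears-2: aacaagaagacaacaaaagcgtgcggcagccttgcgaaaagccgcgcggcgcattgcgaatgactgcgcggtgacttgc
yars-2: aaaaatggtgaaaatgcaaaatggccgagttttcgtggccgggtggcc
mars-1: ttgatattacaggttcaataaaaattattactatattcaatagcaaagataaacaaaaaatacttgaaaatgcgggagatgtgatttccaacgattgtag

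The members' summits held the hexamers no more often than other main summits did. The full 100 bp around the summit held at least 1 of the 2 hexamers at 2 of the 15 members, iff-2 and eef-1G (13.3%), against 18.9% of all 997 main promoter summits, 17.9% of all main summits, 4.15% of the flanks 250 bp away and 4.57% of windows of the same length that begin 200 bp upstream of each protein-coding gene. The hexamers were chosen with earlier results of these data known, so their excess over flanks and upstream windows is not a separate result. The median GC content over 100 bp was 51% at the members' summits and 49% at main promoter summits. The flanks had 35% and the upstream windows 33%. GC content was not matched in these comparisons. Among the members it ranged from 27% at mars-1 and 32% at eif-3.B to 58% at ears-2 and 60% at iff-2.

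The replicates' signals were compared across members. Over the 39 members with a ranked promoter summit in both replicates, signals correlated with a Spearman rho of 0.785 and, on the log2 scale, a Pearson r of 0.876, against 0.606 and 0.761 over 6093 protein-coding genes. The pooled values span classes of unlike level: within classes rho was 0.756 for 20 initiation, 0.371 for 6 elongation and termination and 0.423 for 13 synthetase genes, the last 2 below that of all genes. The Pearson r within these classes was 0.858, 0.847 and 0.696. These are descriptions across genes, which are not independent replicates, and points share the 2 libraries. The log2 ratio between replicates 1 and 2 had an SD of 0.52 over the 39 members, against 0.60 over the 6093 genes. The SD was 0.32 over the 15 members with a main summit, and that over all genes with a main summit was not computed. Both summits of a gene lay within 100 bp of each other at 15 of 15 members with a main summit and at 13 of the 24 members without one that had a summit in both replicates (54.2%), against 90.5% of 1142 genes with and 41.8% of 4951 genes without a main summit. The 15 members in the main list spanned 33.9 to 214 in replicate 1 and 40.5 to 217 in replicate 2. The members outside it reached at most 42.8 in replicate 1 and 33.5 in replicate 2, so the 2 sets overlapped in replicate 1 and not in replicate 2. The main list was selected by reproducible ranking, so part of this agreement is fixed by the choice of list.

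**Figure D4:**
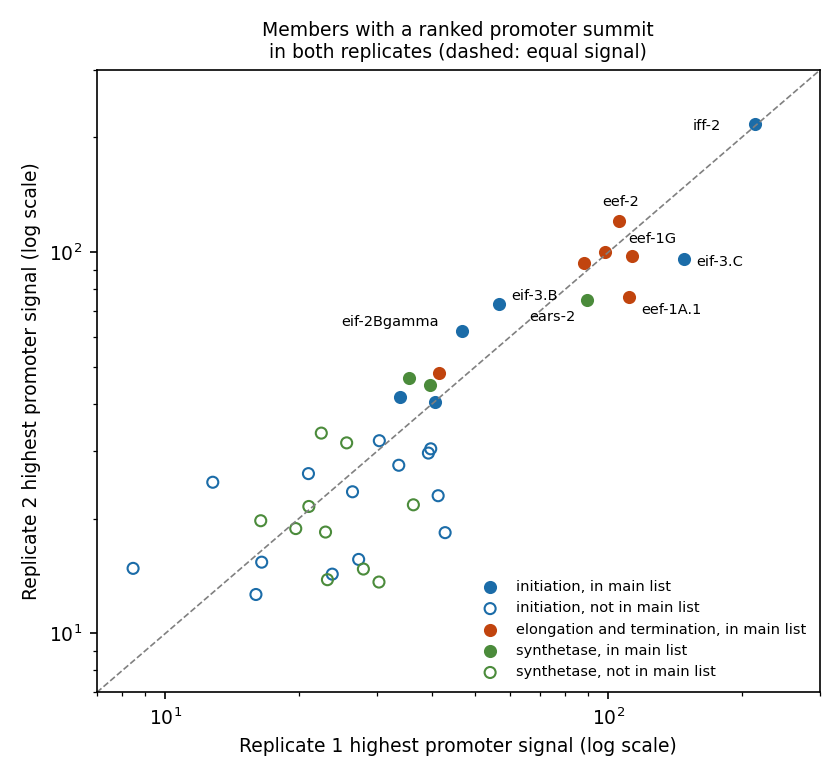
Highest promoter signal in replicate 1 (horizontal, log scale) and replicate 2 (vertical, log scale) for the 39 members with a ranked promoter summit in both, coloured by class. Filled points are in the main list and run up to iff-2 at 214 and 217; open points reach at most 42.8 and 33.5.

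Ribosomal protein genes, whose products form the ribosome itself, were set beside the factors. The 75.0% of elongation and termination, 18.2% of initiation and 9.38% of synthetase genes with a main promoter summit compare with 36 of 81 cytosolic ribosomal protein genes (44.4%, with the rla- genes of the ribosomal stalk) and 7 of 70 mitochondrial ribosome genes, against 5.78% of all genes. Genes with a main summit had a median main signal of 186 for elongation and termination, 109.5 for initiation and 89.96 for synthetase genes. It was 167 for cytosolic and 128 for mitochondrial ribosomal genes and 116 for all genes. The initiation and synthetase medians, from 6 and 3 genes, lay below that of all genes in this list. In the second pooled list the initiation median, from 4 genes, lay above it, at 175 against 114 for all genes. The synthetase median was again 89.96 there. These differences were not tested.

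Further genes that regulate or assist translation were examined as a list of 40 symbols, of which 38 were in the annotation. A main promoter summit was present at 7 of the 38 (18.4%), against 5.78% of all genes, with a median main signal of 169, against 116 for all genes with one. At 4 of the 7 the summit lay nearer to another gene. drr-2, an eIF4H homologue, had 305 in replicate 1 and 251 in replicate 2 (main signal 565, -172 bp). ifet-1, a translational repressor that binds eIF4E, had 294 and 275 (574, -523 bp), but its summit lay nearer to the ribosomal protein gene rps-1, at -245 bp. larp-1 had 154 and 146 (306, -656 bp), nearer to wip-1 at -333 bp. abcf-2, of the ABCF ATPases, had 85.9 and 79.3 (169, -916 bp), nearer to ant-1.1 at -9 bp. pab-2, a poly(A)-binding protein gene, had 60.4 and 58.05 (115.5, -199 bp). gcn-1, a co-activator of the eIF2 kinase GCN2, had 48.8 and 33.4 (78.6, -291 bp). tufm-2, for a mitochondrial elongation factor Tu homologue, had no ranked summit in replicate 1 and 33.5 in replicate 2 (77.5, -166 bp), nearer to exoc-7 at -5 bp. The genes for eIF4A (inf-1), eIF5B (iffb-1), the eIF2 kinases (gcn-2, pek-1) and the eEF2 kinase (efk-1) had no main summit.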

How the data were processed

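Chromatin of 2 biological replicates is described by 8 deposited peak lists on build ce11, per the labels and the deposited notes. Each list was derived from the alignments of 1 replicate or of both, with 1 further alignment file, and the thresholded lists with another file besides, per the deposited notes. Which aligner and peak caller were used, and how, is not given in those sources. The signal (column 7) and the score of a peak (column 5, at most 1000) are the authors' deposited values. The score was not used to select peaks. The 2 pooled ranked lists were not used.

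Summits were placed against transcript starts of Ensembl release 115 (WBcel235, whose chromosome names and lengths fit the peaks); products came from RefSeq. Nothing was tested: there is 1 group, so genes are described by counts beside those of all protein-coding genes. Members and lists were chosen with earlier results of these data known. Genes named are all members with a main summit, the 4 highest others per class by the lower of the 2 replicates, members with no ranked summit, listed related genes with a main summit, and genes whose start is nearer to a named summit; the other neighbours, eIF2, iff-1, erfa-1 and further related genes were named after their values were seen. Promoters were printed for 2 members only. Gene assignment was checked on simulated summits. The work was done in Python 3.11.15 with pandas 2.3.3 and numpy 2.4.6 for the tables, scipy 1.17.1 for correlations, and matplotlib 3.10.9 for plots.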

Additional observations from a re-analysis of the deposited data

How the results depend on the processing

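The counts were recomputed under 10 alternatives. Of the 15 members with a main summit, 7 kept it in all 10 (iff-2, eif-3.C, eef-1G, eef-2, eef-1A.2, eef-1B.1 and ears-2), and eef-1A.1 lost it when each summit went to the nearest start. The count of 15 was 8 to 9 with 1 replicate's own list alone (against 3.39% of all genes in replicate 1 and 4.08% in replicate 2) and 8 with main peaks in both replicates' own lists (against 2.64%). Under these settings the initiation count of 6 was 2 to 3 and 2, and the synthetase count of 3 was 1 to 1 and 1; the synthetase count was also 1 with the 50% highest main peaks (against 3.65%). A synthetase count of 1 is 3.12% of the class, too few genes to be read against the all-gene share in these settings. The elongation and termination count of 6 was 5 to 6 in these 10, and 7 with the eIF5A genes counted in that class. No other members gained a main summit except ife-3 and eif-6, both in a window of 2000 bp upstream and ife-3 also when any overlap of peak and window counted. The class medians with genes at 0 depend on the window: with 500 bp upstream and 100 bp downstream the initiation and synthetase medians were 0 in both replicates, and the elongation and termination medians did not move. With only summits nearest to the gene's own start, the medians in replicates 1 and 2 were 8.45 and 0 for initiation, 64.8 and 71.03 for elongation and termination, and 0 and 0 for synthetase genes. With genes that had no summit left out they were 33.6 and 24.9, 102.02 and 93.8, and 22.98 and 19.7 for these classes. The cause of these shifts was not tested. No paired analysis was possible because the series has 1 group. Read depth is unknown, so a promoter with no summit may hold binding below the calling limit.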
